A study of Mus musculus with 22 samples.

Results

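The chemokine ligand genes of the mouse were followed across thymus, cerebrum and cerebellum of Tol and WT mice. A gene was included when its GRCm38 symbol was Ccl or Cxcl with a number and at most 1 further letter, or was Cx3cl1 or Xcl1, and when it was annotated as protein coding. Of 38 matching symbols, Cxcl11 was left out because it is not annotated as protein coding, and Ccl25 was not analysed here. This left 36 of the 34585 entries listed in each count table, of which 22 were CC ligands and 12 were CXC ligands, with Cx3cl1 as the CX3C ligand and Xcl1 as the C ligand. Tol mice are C57BL/6 mice that carry a single artificial open reading frame, assembled from scrambled fragments of reporter and modifier proteins, downstream of the ubiquitously active CAG promoter near the Col1a1 locus. WT mice lack the cassette and are the only control group, so an effect of the Tol reading frame and an effect of the insertion itself cannot be told apart. Age and sex are not given in the labels. Poly(A) RNA from frozen organs was sequenced as 4 Tol and 4 WT thymus libraries, 4 Tol and 4 WT cerebrum libraries, and 2 Tol and 4 WT cerebellum libraries, and the labels name no treatment. Labels do not state whether equal replicate numbers mark the same mouse, and p-values therefore measure only the spread between these libraries.

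Chemokines are small secreted proteins that steer cell migration through G protein-coupled receptors, and they are classed by the spacing of conserved cysteines near the amino terminus. In the thymus, homeostatic chemokines guide progenitors into the organ and move developing thymocytes between cortex and medulla, while inflammatory chemokines draw leukocytes into injured or infected tissue. In the brain, Cx3cl1 is made by neurons and signals to microglia, Cxcl12 is made by meninges, vessels and some neurons, and most inflammatory ligands are scarce in healthy tissue.

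The class-defining cysteines were found in at least 1 annotated coding transcript of every one of the 36 genes. The windows shown here are reference coding sequence of GRCm38, read 5′ to 3′ on the strand of the gene, with the cysteine codons in capitals. They are given for the ligands that led an organ or that lie next to each other on chromosome 8, and Xcl1 is added as the C class. In a CC ligand both codons are adjacent, in a CXC ligand 3 codons are spanned, and in Cx3cl1 the pair spans 5 codons.
Ccl21a, chr4:42773723-42773752, minus strand: gggggtcaggacTGCTGCcttaagtacagc
Ccl5, chr11:83529230-83529259, minus strand: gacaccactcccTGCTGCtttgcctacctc
Ccl22, chr8:94746922-94746951, plus strand: gaagacagtatcTGCTGCcaggactacatc
Ccl17, chr8:94811200-94811229, plus strand: gtaggccgagagTGCTGCctggattacttc
Ccl27a, chr4:41769933-41769962, minus strand: tccagcactagcTGCTGTactcagctctat
Cxcl12, chr6:117171496-117171528, plus strand: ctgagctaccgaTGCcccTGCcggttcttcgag
Cxcl14, chr13:56295903-56296113, minus strand and spliced across an intron: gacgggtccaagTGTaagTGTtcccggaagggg
Cx3cl1, chr8:94778039-94778077, plus strand: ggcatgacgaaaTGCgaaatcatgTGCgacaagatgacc
Xcl1, chr1:164932963-164932989, minus strand: gaagagagtagcTGTgtgaacttacaa
In the annotation, 5 of 11 coding transcripts of Ccl27a and 2 of 5 of Cx3cl1 carried their motif. The deposited counts are per gene and do not separate these transcripts.

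Short reads cannot always tell near-identical ligand genes apart. Of the 36 genes, 27 shared no stretch of 65 bases, the read length, with any other annotated gene, whereas 5 shared more than 10% of theirs. Ccl21b shared 100% of its stretches, Ccl27b 98.1%, Ccl21a 65.5%, Ccl19 47.9% and Ccl27a 37.6%. Ccl21a and Ccl21b have coding sequences of 402 bases that differ at 2 positions, T84A and C194T, where the Ccl21a base stands first and positions count from the first base of the start codon. Around position 84 each gene reads as follows, with the differing base in capitals.
Ccl21a, chr4:42773733-42773762, minus strand: cagtgatggagggggTcaggactgctgcct
Ccl21b, chr4:42255923-42255952, plus strand: cagtgatggagggggAcaggactgctgcct
Counts of these 5 genes are therefore uncertain at the level of the single copy. Exons of Ccl27a, Cxcl10, Cxcl16 and Xcl1 also overlap a gene on the opposite strand. The library kit keeps strand, but whether the counting used it is not stated in the sources used here.

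The libraries held 14543698 to 34776973 counts. Levels are given as CPM, the count of a gene relative to the scaled total of its library, on 1 scale for all 22 libraries. The detection floor was set at 3 counts per library, on average 0.124 CPM for thymus, 0.175 CPM for cerebrum and 0.125 CPM for cerebellum, and allows for counting error only. The Tol transcript stood at 19.8 to 25.4 CPM in Tol thymus, 147 to 174 CPM in Tol cerebrum, and 191 and 140.2 CPM in Tol cerebellum, against at most 0.120 CPM in any WT library. Thymocyte markers summed to 8678 to 11758 CPM in the thymus and to at most 45.4 CPM in the brain libraries, and neuron markers to between 9250 and 12204 CPM in cerebrum and at most 45.1 CPM in thymus. Cerebellum Tol replicate 2 went against its label in part, since 8 markers of cerebellar neurons summed to 347 CPM there and to 3433 to 8668 CPM in the other 5 cerebellum libraries. Forebrain neuron markers were also lowest there, at 82.9 CPM against 334 to 572 CPM. Their sums ranked the cerebellum libraries in the same order as those of the cerebellar neuron markers. The same list summed to 552 to 686 CPM in thymus, so it is not specific to forebrain and nothing about forebrain tissue is read from it. Choroid plexus markers summed to 4791 CPM in cerebellum WT replicate 4 and 1336 CPM in WT replicate 2, against 20.6 to 40.9 CPM in the other 4, and oligodendrocyte markers were highest in WT replicate 2, at 17623 CPM against 4796 to 9676 CPM. In bulk RNA, fewer cells of a type and less RNA per cell cannot be told apart.

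More chemokine ligands were detected in thymus than in brain, but their summed CPM, not corrected for gene length, was highest in cerebrum, through a few ligands. Summed over all 36 ligands, cerebrum libraries had 1289 ± 122 CPM in Tol and 1300 ± 239.6 CPM in WT (SD, n = 4 each), of which Cx3cl1 made up 79.3%, against 740 ± 53 and 710 ± 54 CPM in Tol and WT thymus. Per kb of exon this order was reversed, and the summed ligand level was higher in thymus than in cerebrum. Ccl21a at 224 CPM per kb was 48.1% of the thymus sum, and Cx3cl1 at 261 CPM per kb was 71.7% of the cerebrum sum. In the thymus 31 of the 36 ligands reached 3 counts in all 8 libraries, compared with 10 in all 8 cerebrum libraries and 12 in all 6 cerebellum libraries. Means of at least 1 CPM were seen for 23 thymus ligands, 8 cerebrum ligands and 7 cerebellum ligands. The organ with the highest mean was the thymus for 31 ligands and the cerebrum for 4, namely Cx3cl1, Cxcl14, Ccl27a and Ccl28, and it was the cerebellum for 0. Ccl26, an eosinophil attractant, had 0 counts in all 22 libraries, which allows up to 3 counts in each.

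Levels separated the organs library by library. For 26 of the 35 ligands with any count in thymus or cerebrum, all thymus libraries lay above all cerebrum libraries, where 26.3% of all genes with counts did so, and for 4 ligands all lay below, against 23.3%. Against cerebellum the same split was seen for 26 ligands above and 4 below, with 25.0% and 22.5% of all genes. Between the brain regions, 0 of 33 ligands lay higher in every cerebellum library, against 7.30% of all genes, and 2 ligands, Cx3cl1 and Ccl27a, lay lower in every one, against 8.94%. These counts use every ligand with a count and no filter on level. By the edgeR quasi-likelihood test in WT mice, 23 of 27 tested ligands were higher and 4 lower in thymus than in cerebrum, where 43.4% and 40.9% of all genes passed in either direction. Against cerebellum, 23 were higher and 4 lower, with 41.8% and 41.7% of all genes. The other 9 ligands did not pass the filter on low counts, and ligands abundant in 1 organ alone passed it through that organ, so nothing is read from these test counts. Scaling by library totals alone moved the median log2 difference of all genes from 0.06 to 0.47 for thymus against cerebrum, and from -0.01 to 0.26 for thymus against cerebellum, but the counts of ligands higher and lower were the same.

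**Figure D1:**
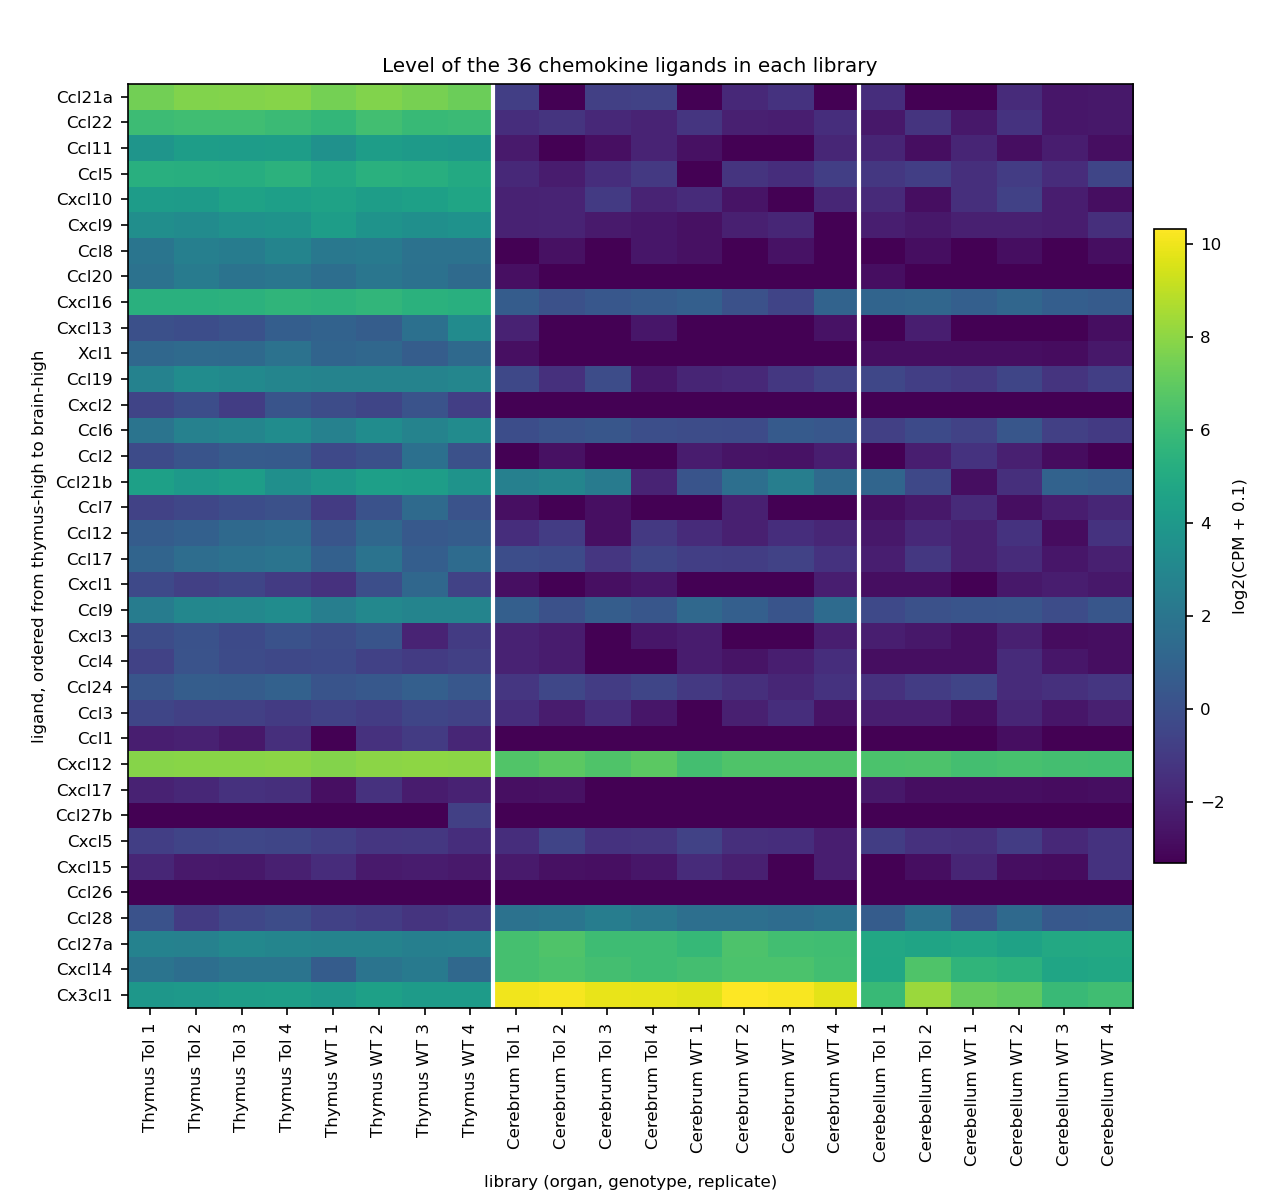
Level of each chemokine ligand (rows) in each of the 22 libraries (columns, grouped by organ and genotype), as log2 of CPM plus a small constant, in colour. The thymus columns are filled for 31 ligands, whereas Cx3cl1, Cxcl14, Ccl27a and Cxcl12 stand out in the brain columns.

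To compare ligands with each other, CPM was divided by the exon length of each gene. In the thymus Ccl21a led with 224 CPM per kb, and made up 48.1% ± 2.78 (SD, n = 8) of the summed ligand level per kb. Ccl21b followed with 42.0, Ccl5 with 38.4, Cxcl12 with 29.4, Ccl22 with 27.8, Ccl11 with 15.53, Cxcl16 with 14.5, Cxcl10 with 9.46, Ccl8 with 9.34 and Ccl19 with 8.75 CPM per kb. The step below Ccl21a was seen in all 8 libraries without overlap, as were the steps below Ccl5, Ccl22 and Cxcl16. Neighbours that overlapped in level were Ccl21b and Ccl5, Cxcl12 and Ccl22, Ccl11 and Cxcl16, and Cxcl10, Ccl8 and Ccl19. In the cerebrum Cx3cl1 led with 261 CPM per kb, 71.7% ± 1.78 (SD, n = 8) of the summed level, ahead of Cxcl14 with 43.5, Ccl27a with 31.6 and Cxcl12 with 12.1. Cx3cl1 stood clear of Cxcl14 in every library, and Cxcl14 was above Ccl27a within each of the 8 libraries although their ranges overlapped. In the cerebellum the order was the same, with Cx3cl1 at 32.5, Cxcl14 at 24.3, Ccl27a at 11.7 and Cxcl12 at 9.90 CPM per kb, but Cx3cl1 and Cxcl14 overlapped. The order of neighbours depended on the length used. With the longest annotated transcript in place of all exons, Ccl27a came before Cxcl14, at 75.4 against 43.5 CPM per kb in cerebrum and 27.9 against 24.3 in cerebellum, and in thymus Ccl5 with 55.2 and Cxcl12 with 42.8 came before Ccl21b with 42.0. Ccl21a in thymus and Cx3cl1 in both brain regions led with either length. The annotated exons of Ccl21b hold the 402 coding bases only, so its place in these orders also depends on that model.

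**Figure D2:**
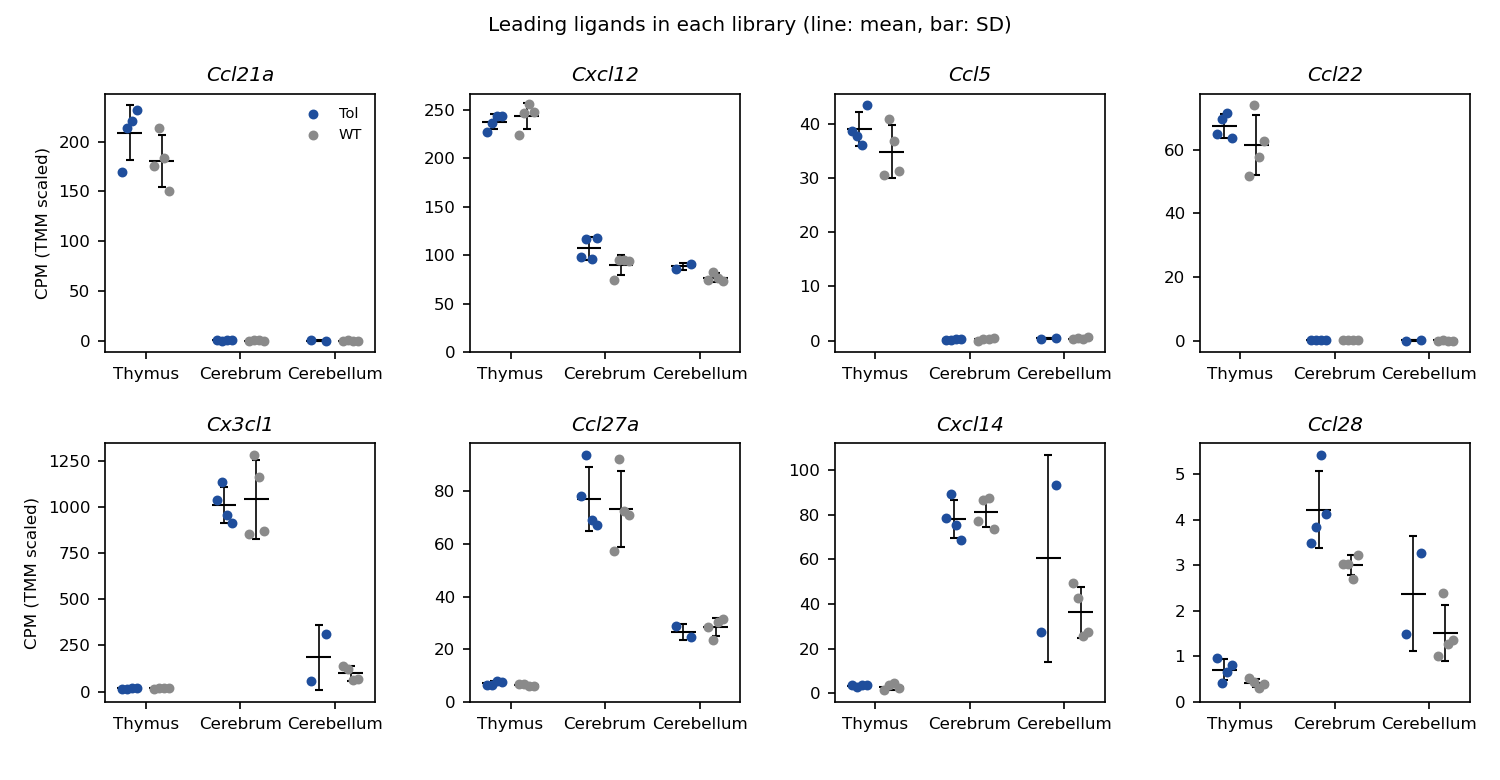
Level in CPM (vertical axes, each including 0 and with its own scale) of 8 leading ligands in each library, by organ and genotype, with points for libraries and bars for the mean and SD. Ccl21a, Ccl22, Ccl5 and Cxcl12 are highest in thymus, and Cx3cl1, Cxcl14, Ccl27a and Ccl28 in cerebrum, with Tol and WT points interleaved for most of them.

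A ligand of Ccr7, the receptor that brings thymocytes to the medulla and dendritic cells to lymph nodes, led the thymus in level per kb. Ccl21a, made by medullary epithelium and lymphatic endothelium, stood at 169.9, 213, 221 and 232 CPM in the 4 Tol thymus libraries and 176, 214, 183 and 150.5 CPM in the 4 WT libraries. No brain library exceeded 0.545 CPM, so the thymus was 774-fold above cerebrum and 1858-fold above cerebellum by means, the latter resting on 15 counts in the cerebellum. In WT mice the log2 difference to cerebrum was 10.52 (SE 0.38, edgeR adjusted p = 3.04e-11). The WT cerebrum libraries had 0 to 5 counts of Ccl21a each. It passed the filter on low counts through thymus, so nothing is read from this p-value. Ccl21b stood at 21.5, 15.9, 19.0 and 11.1 CPM in Tol thymus and 15.1, 20.4, 19.3 and 12.8 CPM in WT thymus. In the cerebrum its values ran over a wide range within both genotypes, at 5.97, 7.22, 4.98 and 0.156 CPM in Tol and 1.08, 3.09, 5.58 and 2.58 CPM in WT. Its cerebellar values ran from 0.042 to 2.06 CPM. Summing Ccl21a and Ccl21b with Gm13304 and Gm21541, near-identical copies on chromosome 4 that share these stretches, gave 236 ± 33.6 CPM (SD, n = 4) in WT thymus, 14.9 ± 7.04 in WT cerebrum and 4.27 ± 3.15 in WT cerebellum. Gm21541 had 0 counts in all 8 thymus libraries but 6.60 ± 3.57 CPM in WT cerebrum, where Ccl21a itself had 0.123 ± 0.149. The sum over copies thus left the thymus highest, but its distance to the brain regions was far smaller than for Ccl21a alone. Which copy the brain reads came from was not tested.

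Ccl19, the other Ccr7 ligand, stood at 6.43, 9.85, 8.89 and 7.31 CPM in Tol thymus and 6.86, 6.73, 6.88 and 7.71 CPM in WT thymus, against 0.0779 to 0.789 CPM in cerebrum and 0.309 to 0.659 CPM in cerebellum. The thymus was higher by 4.49 on the log2 scale in WT mice than cerebrum (SE 0.31, edgeR adjusted p = 2.04e-08). The WT cerebrum libraries had only 3 to 9 counts of Ccl19 each, so nothing is read from this p-value. With its 4 annotated copies the WT means became 17.9 CPM in thymus, 0.586 CPM in cerebrum and 1.03 CPM in cerebellum, from 7.05, 0.314 and 0.444 CPM for Ccl19 alone.

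Cxcl12, which retains progenitors through Cxcr4 in bone marrow and guides early thymocytes and migrating neurons, had a mean of at least 10 CPM in all 3 organs, as did Cx3cl1. It stood at 227, 237, 243 and 243 CPM in Tol thymus and 224, 247, 256 and 247 CPM in WT thymus. Cerebrum had 98.03, 117, 96.3 and 118 CPM in Tol and 74.8, 95.2, 95.7 and 93.8 CPM in WT, and cerebellum had 86.4 and 91.2 CPM in Tol and 75.1, 83.2, 76.8 and 73.1 CPM in WT. All thymus libraries lay above all brain libraries, yet by means the thymus was only 2.44-fold above cerebrum and 2.97-fold above cerebellum. In WT mice cerebellum was lower than cerebrum by a log2 difference of -0.23 (SE 0.08, edgeR adjusted p = 0.0375), a call that was lost when thymus was left out of the fit, with scaling by library totals (-0.08), and in 6 of 13 fits without 1 or 2 libraries.

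Ligands of Ccr4, a receptor of thymocytes leaving positive selection and of regulatory T cells, were thymic, but their chromosomal neighbour was not. Ccl22, made by dendritic cells and medullary epithelium, stood at 65.04, 69.7, 71.7 and 63.7 CPM in Tol thymus and 51.6, 74.0, 57.7 and 62.9 CPM in WT thymus. In the brain it did not exceed 0.325 CPM, and the thymus was 298-fold above cerebrum and 404-fold above cerebellum. These folds rest on 31 counts in all cerebrum libraries together and 23 in all cerebellum libraries. Ccl17, the second Ccr4 ligand, stood at 2.04, 2.85, 3.32 and 3.68 CPM in Tol thymus and 1.69, 3.53, 1.60 and 2.601 CPM in WT thymus. It kept 0.300 to 0.825 CPM in cerebrum and 0.0772 to 0.363 CPM in cerebellum, so the thymus was 4.93-fold above cerebrum and 15.4-fold above cerebellum. In WT mice Ccl17 was lower in cerebellum than in cerebrum by a log2 difference of -1.67 (SE 0.42, edgeR adjusted p = 0.00565). Over both genotypes it had 25 counts in all cerebellum libraries together and 76 in all cerebrum libraries. It did not pass the filter on low counts in the Tol against WT fit of either brain region, so nothing is read from this call. Ccl22 at chr8:94745590-94751699, Cx3cl1 at chr8:94772009-94782427 and Ccl17 at chr8:94810453-94812036 lie on the plus strand within 66.4 kb of GRCm38. The gaps are 20.3 kb and 28.0 kb, with 0 annotated protein-coding genes between them, and thymus was the highest organ for both flanking genes and the lowest for the gene between them.

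**Figure D3:**
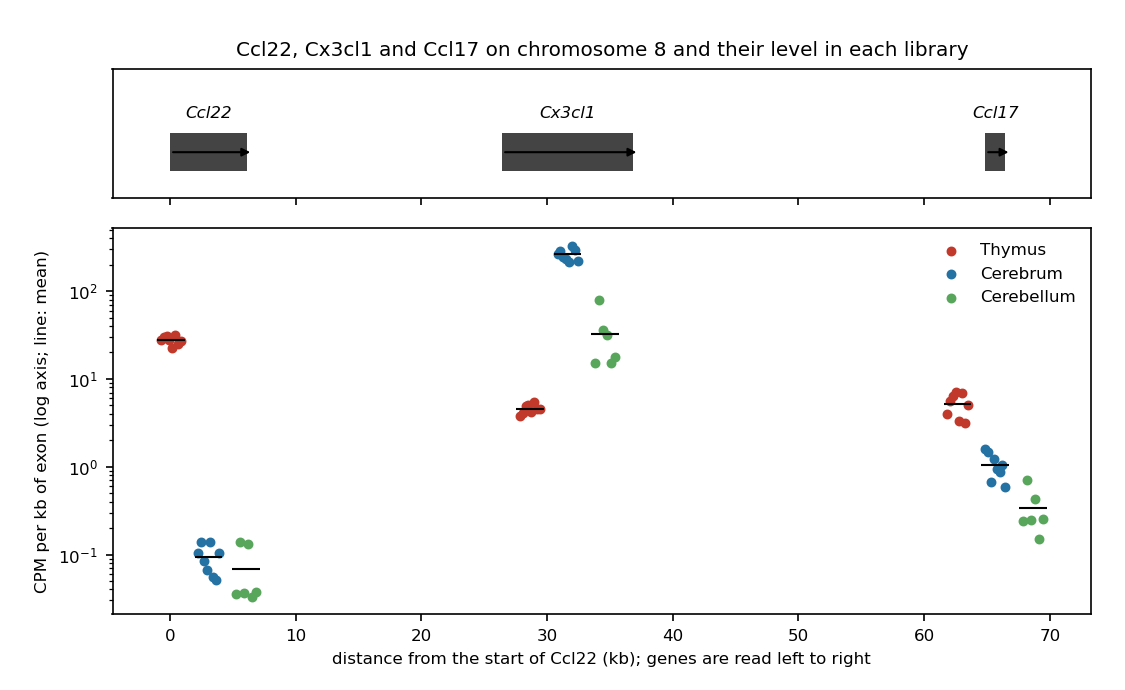
Upper panel, position of Ccl22, Cx3cl1 and Ccl17 on chromosome 8 as distance in kb from the start of Ccl22, with arrows for the strand. Lower panel, CPM per kb of exon of each gene in every library on a log axis, coloured by organ with a line at the organ mean, where thymus is highest for Ccl22 and Ccl17 and cerebrum for Cx3cl1, whose mean was 57.2-fold above that of thymus.

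Cx3cl1, fractalkine, is anchored in the membrane of neurons and endothelium and binds Cx3cr1 of microglia. It stood at 1037, 1136, 955 and 915 CPM in Tol cerebrum and 853, 1284, 1162 and 871 CPM in WT cerebrum, against 14.7, 16.02, 19.1 and 19.9 CPM in Tol thymus and 16.3, 21.4, 18.1 and 18.0 CPM in WT thymus. In cerebellum the Tol libraries had 59.3 and 310.5 CPM and the WT libraries 141, 124, 60.1 and 70.03 CPM. The groups of the 3 organs did not overlap, and the cerebellum lay between the other organs. Cerebrum was 57.2-fold above thymus and 8.05-fold above cerebellum by means. In WT mice the log2 difference of cerebellum to cerebrum was -3.41 (SE 0.27, edgeR adjusted p = 9.40e-07), and it was -2.45 in Tol mice (SE 0.52, edgeR adjusted p = 0.00827). Without cerebellum Tol replicate 2, which had few cerebellar neuron markers and the highest cerebellar Cx3cl1, the Tol value was -4.09.

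Cxcl14, a ligand of epithelia and of inhibitory interneurons in the brain, followed the same order of organs. Cerebrum had 78.4, 89.2, 75.5 and 68.6 CPM in Tol and 77.1, 86.4, 87.3 and 73.8 CPM in WT, and cerebellum 27.7 and 93.2 CPM in Tol and 49.3, 42.8, 25.9 and 27.6 CPM in WT. Cerebellum Tol replicate 2 lay above every cerebrum library, whereas the other 5 cerebellum libraries lay below all of them. In WT mice the log2 difference of cerebellum to cerebrum was -1.17 (SE 0.26, edgeR adjusted p = 0.00268). In Tol mice it was -0.37 (SE 0.36, edgeR adjusted p = 0.51), and it became -1.49 and was called without replicate 2. In thymus Cxcl14 stood at 3.72, 2.95, 3.77 and 3.72 CPM in Tol and 1.46, 3.68, 4.76 and 2.36 CPM in WT, which put cerebrum 24.1-fold and cerebellum 13.4-fold above it.

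Both Ccr10 ligands, Ccl27a and Ccl28, known from skin and mucosa, were higher in brain than in thymus. Ccl27a stood at 78.3, 93.9, 69.0 and 67.0 CPM in Tol cerebrum and 57.2, 92.2, 72.4 and 70.8 CPM in WT cerebrum. In cerebellum it stood at 28.7 and 24.6 CPM in Tol and 28.4, 23.4, 30.5 and 31.4 CPM in WT, and in thymus at 6.48, 6.40, 8.11 and 7.44 CPM in Tol and 6.81, 6.87, 5.90 and 6.04 CPM in WT. The 3 organs did not overlap, with cerebrum 11.1-fold above thymus and 2.70-fold above cerebellum. In WT mice the log2 difference of cerebellum to cerebrum was -1.37 (SE 0.14, edgeR adjusted p = 5.63e-06), and in Tol mice -1.53 (SE 0.17, edgeR adjusted p = 0.000242). With its annotated copies, Ccl27b among them, the WT means became 8.58 CPM in thymus, 104 ± 22.6 CPM in cerebrum and 36.7 CPM in cerebellum, in the same order. Ccl27a shares 8 exon bases with the receptor gene Il11ra1 on the other strand, and several Ccl27a transcripts lack the motif shown for it. Ccl27b itself had counts in 1 library only, WT thymus replicate 4, at 0.508 CPM.

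Ccl28 stood at 3.49, 3.85, 5.43 and 4.13 CPM in Tol cerebrum and 3.04, 3.02, 2.70 and 3.24 CPM in WT cerebrum, with 1.48 and 3.27 CPM in Tol cerebellum and 1.01, 2.40, 1.27 and 1.35 CPM in WT cerebellum. Thymus libraries had 0.968, 0.414, 0.655 and 0.803 CPM in Tol and 0.517, 0.436, 0.310 and 0.389 CPM in WT. All brain libraries lay above all thymus libraries. The brain regions overlapped through cerebellum Tol replicate 2, the highest cerebellar value, and in WT mice the log2 difference of cerebellum to cerebrum was -1.001 (SE 0.26, edgeR adjusted p = 0.00609).

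**Figure D4:**
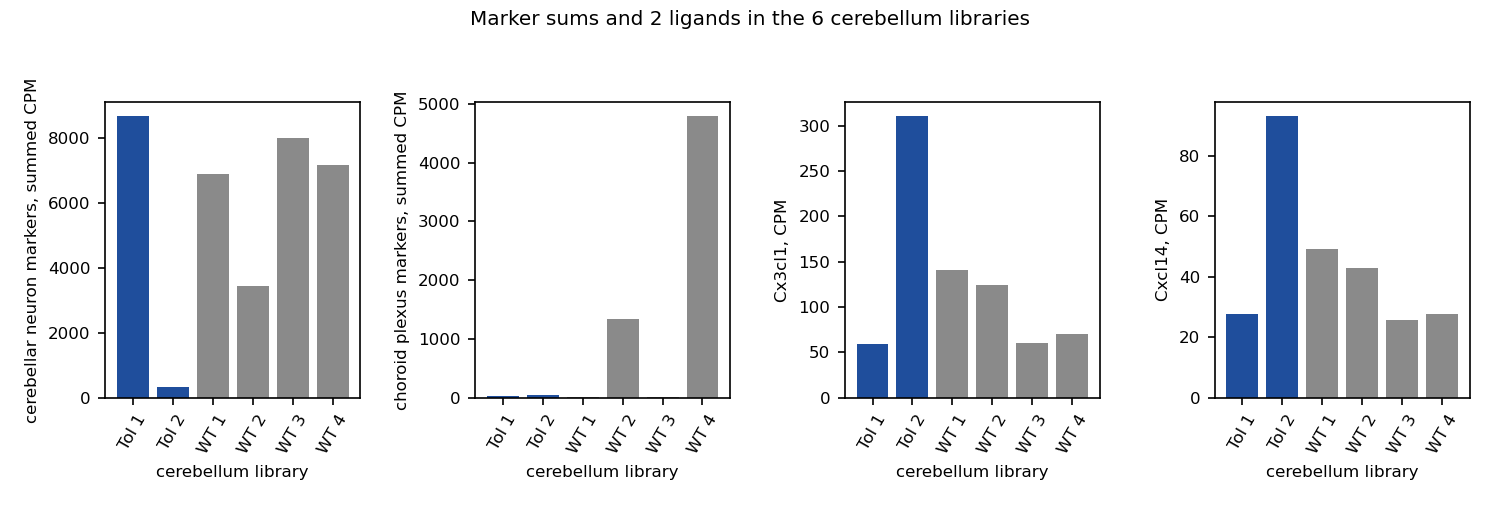
Bars for each of the 6 cerebellum libraries, with summed CPM of the cerebellar neuron and choroid plexus markers and CPM of Cx3cl1 and Cxcl14, all axes from 0. Tol replicate 2 has the lowest sum of cerebellar neuron markers, 347 CPM, and the highest Cx3cl1 and Cxcl14, and the choroid plexus sum is highest in WT replicate 4.

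The low sum of cerebellar neuron markers in Tol replicate 2 moved with Cx3cl1, Cxcl14 and Ccl28, and its part in their levels was not tested. Across the 36 ligands, 8 of 27 tested differed between WT cerebellum and WT cerebrum by the edgeR test, with 1 higher and 7 lower, where 26.4% of all genes were higher and 24.6% lower. Besides Cx3cl1, Cxcl14, Ccl27a, Ccl28, Ccl17 and Cxcl12, the lower group held Ccl9, a macrophage ligand, at -0.93 (SE 0.26, edgeR adjusted p = 0.0113). With scaling by library totals the shares of all genes were 36.2% and 18.6%. The higher one was Xcl1, which stayed under 3 counts in every brain library, so no fold is given, and its call was lost with DESeq2, without the filter on low counts, and in 6 of 13 fits without 1 or 2 libraries. Without WT replicates 2 and 4, the libraries with choroid plexus or oligodendrocyte signal, 7 were called, with 47.5% of all genes. In these 3-organ fits, ligands abundant in thymus alone passed the filter through it, so nothing is read from such counts. With only the 2 brain regions in the WT fit, 9 ligands were tested and 5 called, all lower, where 49.8% of all genes were called. In Tol mice 3 of 31 were called, where 23.4% of all genes were, and 5 without Tol replicate 2, where 36.8% were. The 3 were Cx3cl1 and Ccl27a lower and Cxcl16 higher. The 5 were all lower, so the call of Cxcl16 was lost without Tol replicate 2. Its call was also lost with only the 2 brain regions in the Tol fit. There 1 of 14 tested ligands was called, and it was lower, where 15.6% of all genes were called.

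Most inflammatory CC ligands, which attract monocytes, T cells and eosinophils, were higher in thymus than in brain, where several were close to the floor. Ccl5, made by T cells and NK cells, stood at 38.7, 37.7, 36.1 and 43.4 CPM in Tol thymus and 30.5, 40.8, 36.9 and 31.2 CPM in WT thymus, against at most 0.611 CPM in any brain library. The thymus was 149-fold above cerebrum and 92.8-fold above cerebellum, resting on 33 and 57 counts in all libraries of these brain regions. Ccl11, eotaxin, stood at 13.8, 19.5, 18.3 and 19.0 CPM in Tol thymus and 11.7, 19.4, 17.2 and 15.6 CPM in WT thymus, with at most 0.180 CPM in brain. Its thymus mean was 251-fold above cerebrum and 175-fold above cerebellum, resting on 9 counts in all 8 cerebrum libraries, 7 of them under 3 counts, and on 14 in all 6 cerebellum libraries. Ccl24, the other detected eotaxin, differed far less, with 1.12, 1.52, 1.47 and 1.82 CPM in Tol thymus and 1.08, 1.26, 1.66 and 1.23 CPM in WT thymus against 0.180 to 0.642 CPM in cerebrum and 0.218 to 0.587 CPM in cerebellum. Its thymus mean was 3.52-fold above cerebrum and 3.88-fold above cerebellum.

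The monocyte attractants Ccl2, Ccl7, Ccl8 and Ccl12 lie in 1 cluster on chromosome 11. Ccl8 was the highest of them per kb, and stood at 3.92, 5.94, 5.24 and 7.10 CPM in Tol thymus and 4.32, 4.74, 3.41 and 3.50 CPM in WT thymus, with 3 counts in all 6 cerebellum libraries together. Ccl12 stood at 1.46, 1.75, 2.42 and 2.75 CPM in Tol thymus and 1.13, 2.23, 1.29 and 1.46 CPM in WT thymus, 7.73-fold above cerebrum and 10.3-fold above cerebellum. Ccl2 stood at 0.770, 1.06, 1.39 and 1.35 CPM in Tol thymus and 0.705, 0.920, 3.21 and 0.927 CPM in WT thymus. Ccl7 stood at 0.546, 0.644, 0.819 and 0.930 CPM in Tol thymus and 0.423, 0.968, 2.53 and 1.02 CPM in WT thymus. Thymus WT replicate 3 was the highest library for Ccl2 and Ccl7, and also for Cxcl1, a neutrophil attractant, with 2.22 CPM there, 0.423 to 0.720 CPM in the Tol libraries and at most 0.871 CPM in the other WT libraries. All 3 were nevertheless higher in each thymus library than in each brain library.

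Ccl6 and Ccl9, rodent ligands of Ccr1 made by myeloid cells, reached 3 counts in every brain library. Ccl6 stood at 3.77, 6.40, 7.29 and 9.93 CPM in Tol thymus and 6.20, 9.83, 6.67 and 9.36 CPM in WT thymus, against 0.772 to 1.38 CPM in cerebrum and 0.393 to 1.18 CPM in cerebellum. Ccl9 stood at 5.19, 7.83, 8.07 and 9.72 CPM in Tol thymus and 5.54, 8.08, 6.93 and 7.15 CPM in WT thymus, against 0.963 to 2.64 CPM in cerebrum and 0.701 to 1.13 CPM in cerebellum. The thymus was 7.44-fold and 4.47-fold above cerebrum for Ccl6 and Ccl9, and 11.6-fold and 7.63-fold above cerebellum. The macrophage inflammatory proteins Ccl3 and Ccl4 were low in all organs, at 0.423 to 0.621 and 0.414 to 1.01 CPM in thymus and at most 0.247 and 0.240 CPM in brain. Ccl20, the Ccr6 ligand, stood at 3.48, 4.97, 3.60 and 3.97 CPM in Tol thymus and 3.01, 4.02, 3.36 and 2.57 CPM in WT thymus, with 1 count in all cerebrum libraries and 1 in all cerebellum libraries together.

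Among CXC ligands, the interferon-induced Cxcr3 ligands Cxcl9 and Cxcl10 were thymic. Cxcl10 stood at 18.5, 17.8, 23.1 and 20.7 CPM in Tol thymus and 22.9, 19.6, 21.9 and 25.8 CPM in WT thymus, 129-fold above cerebrum and 108-fold above cerebellum. Cxcl9 stood at 10.5, 9.67, 11.7 and 12.8 CPM in Tol thymus and 19.4, 12.97, 11.1 and 12.4 CPM in WT thymus, 119-fold above cerebrum and 89.9-fold above cerebellum. Neither exceeded 0.523 CPM in a brain library. The folds rest on 24 counts of Cxcl10 and 15 of Cxcl9 in all cerebrum libraries together, and on 28 and 20 in all cerebellum libraries. Cxcl16, a membrane-anchored ligand of Cxcr6, stood at 40.1, 40.6, 44.1 and 49.1 CPM in Tol thymus and 45.3, 50.6, 41.5 and 39.0 CPM in WT thymus, and kept 0.600 to 1.92 CPM in cerebrum and 1.44 to 2.18 CPM in cerebellum. Xcl1, which acts on Xcr1 of cross-presenting dendritic cells, stood at 2.26, 2.53, 2.46 and 3.47 CPM in Tol thymus and 1.97, 2.28, 1.55 and 2.42 CPM in WT thymus, with 7 counts in all 6 cerebellum libraries together and 1 in all 8 cerebrum libraries.

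Cxcr2 ligands, which attract neutrophils, were scarce everywhere. Cxcl5 overlapped between the organs, at 0.472, 0.598, 0.655 and 0.634 CPM in Tol thymus and 0.470, 0.339, 0.362 and 0.239 CPM in WT thymus, 0.120 to 0.588 CPM in cerebrum and 0.193 to 0.453 CPM in cerebellum. Cxcl2 had 0.451 to 1.06 CPM in thymus and 0 counts in all 14 brain libraries, which put thymus at least 4.19-fold higher than cerebrum and at least 5.89-fold higher than cerebellum against a floor of 3 counts per library. Cxcl3 had 0.155 to 1.07 CPM in thymus and at most 0.146 CPM in brain. The remaining ligands Ccl1, Cxcl15 and Cxcl17 stayed at or under 0.414, 0.305 and 0.290 CPM in every library.

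Tol expression was then examined for an effect on the ligands. In the thymus, 0 of 31 tested ligands passed an adjusted p of 0.05 by the edgeR test, where 0.0985% of 16248 genes did, and 4 had an unadjusted p under 0.05, a share of 12.9% against 24.4% of all genes. DESeq2 called 1 ligand, Cxcl13, where it called 7.80% of all genes. Log2 differences of Tol to WT ranged from -1.92 to 0.81 with a median of 0.15 over the ligands and 0.01 over all genes, and 20 of 31 were positive.

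The ligand with the largest difference was Cxcl13, the Cxcr5 ligand that organises B cell follicles. It stood at 0.918, 0.8286, 0.983 and 1.61 CPM in Tol thymus and 1.83, 1.501, 3.21 and 9.45 CPM in WT thymus. WT replicate 4 was far above the rest, and the Tol and WT ranges overlapped. The log2 difference was -1.92 (SE 0.53, edgeR adjusted p = 0.0885), and -1.01 without WT replicate 4. B cell markers were also highest in WT replicate 4, with 8 genes summing to 99.2 CPM against 70.9 to 79.5 CPM in the Tol libraries and 71.0 CPM in the lowest WT library, with all 8 detected in thymus, and their part in the Cxcl13 level was not tested. Of the 8 markers, 6 were lower in Tol and 0 were called.

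Ccl28, Cxcl5 and Ccl8 had positive differences in Tol thymus that did not pass. The log2 difference was 0.81 for Ccl28 (SE 0.30, edgeR adjusted p = 0.142), 0.75 for Cxcl5 (SE 0.29, edgeR adjusted p = 0.146) and 0.47 for Ccl8 (SE 0.19, edgeR adjusted p = 0.161). Cxcl5 was the only ligand whose 4 Tol thymus libraries all lay above the 4 WT libraries, by 0.472 against 0.470 CPM at the nearest, where 4.09% of all genes did so. None lay entirely below, against 3.71%. Among the leading thymic ligands, which did not pass either, the difference was 0.21 for Ccl21a (SE 0.12), 0.14 for Ccl22 (SE 0.09), 0.17 for Ccl5 (SE 0.10) and -0.03 for Cxcl12 (SE 0.06) on the log2 scale. Beside these values, 8 dendritic cell markers summed to between 122 and 146 CPM in Tol thymus and to between 142 and 170.0 CPM in WT thymus, with 7 of 8 lower in Tol. The 8 fibroblast markers summed to between 178 and 262 CPM in Tol and 239 and 374 CPM in WT, with 8 of 8 lower. None of these 16 markers was called or at 0, and their part in the ligand levels was not tested.

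**Figure D5:**
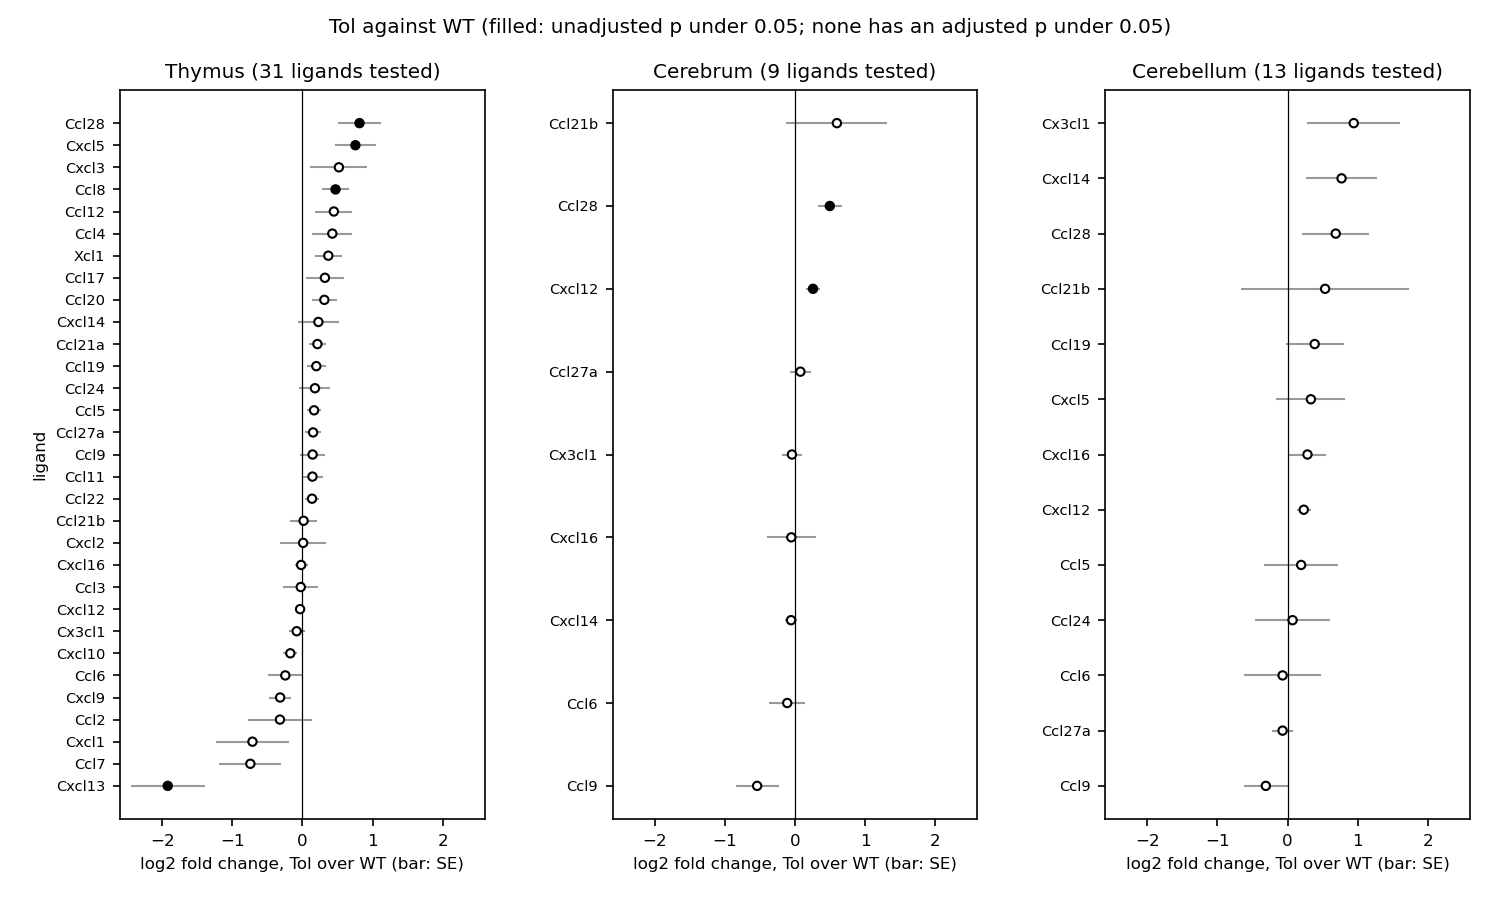
Log2 fold change of Tol against WT, with SE, for each tested ligand in thymus, cerebrum and cerebellum, filled where the unadjusted p was under 0.05. The line at 0 marks no difference, and no ligand passed the adjusted threshold in any organ.

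In the cerebrum, 0 of 9 tested ligands passed by edgeR and 0 by DESeq2, where 0% of 15596 genes did by edgeR and 1.18% by DESeq2, and 2 had an unadjusted p under 0.05, 22.2% against 9.66% of all genes. Those were Ccl28 and Cxcl12, which with the values given above also had all Tol libraries above all WT libraries, where 2.49% of all genes did so. Log2 differences were 0.50 for Ccl28 (SE 0.17, edgeR adjusted p = 0.383) and 0.26 for Cxcl12 (SE 0.11, edgeR adjusted p = 0.471). For Cxcl12 the margin was narrow, with the lowest Tol library at 96.3 CPM and the highest WT library at 95.7 CPM, and without the low WT replicate 1 the difference was 0.18. Ccl2 lay lower in every Tol library, at 0, 0.0535, 0 and 0 CPM against 0.108, 0.0643, 0.06 and 0.120 CPM, where 2.26% of all genes lay lower, but all these values are under 3 counts. Cx3cl1 differed by -0.04 (SE 0.14) and Cxcl14 by -0.06 (SE 0.09).

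In the cerebellum, 0 of 13 tested ligands passed by edgeR, where 0% of 16662 genes did, and 0 passed by DESeq2, where 0.0600% did. None had an unadjusted p under 0.05, against 3.16% of all genes, and the lowest adjusted p was 0.957. The 2 Tol libraries differed from each other more than the genotypes did, with summed ligand levels of 212 and 531 CPM against 250 ± 51 CPM in WT (SD, n = 4). Cx3cl1 had a log2 difference of 0.94 (SE 0.66) and Cxcl14 of 0.77, which became -0.74 and -0.40 without Tol replicate 2, and -0.61 and -0.31 when WT replicate 2 was left out as well. Cxcl12 again had its Tol libraries above all WT libraries, where 4.76% of all genes did, with a difference of 0.23 (SE 0.10, edgeR adjusted p = 0.957) and of 0.17 without Tol replicate 2. Markers of fibroblasts and meninges moved with it, summing to 375 and 533 CPM in the Tol libraries against 259 to 365 CPM in WT, with 8 of 8 higher and 0 called. In the cerebrum their Tol sums of 234 to 289 CPM lay within the WT range of 170.2 to 344 CPM. The 8 vascular endothelium markers summed to 235 and 298 CPM in Tol cerebellum against 224 to 279 CPM in WT. In cerebrum they summed to 232 to 286 CPM in Tol against 212 to 250.0 CPM in WT. In both brain regions 1 of these 8 was lower in Tol and 0 were called. The part of either list in the Cxcl12 level was not tested. Ccl4 lay lower in both, where 4.74% of all genes did, at 1 count in either Tol library, but WT replicates 1 and 4 also had 1 count, so only library size set those apart. Ccl28 had a difference of 0.69 in the cerebellum (SE 0.48), which became -0.02 without Tol replicate 2, and it passed in no organ.

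The differences between organs in the effect of Tol were tested directly. In thymus and cerebrum together, 0 of 31 ligands had an interaction of genotype and organ with an adjusted p under 0.05, where 0.107% of 17774 genes did. The same count was 0 of 31 for cerebellum against thymus and 0 of 15 for cerebellum against cerebrum, where 0% of all genes passed. At an unadjusted p under 0.05, the counts were 1, 1 and 0, and the ligand was Cxcl12 in both cases. Its effect in cerebrum exceeded that in thymus by 0.29 (SE 0.12, edgeR adjusted p = 0.261), and its effect in cerebellum exceeded that in thymus by 0.29 (SE 0.10, edgeR adjusted p = 0.5). Both interactions share the thymus libraries.

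Receptors were read from the same libraries, as 18 signalling chemokine receptors and 5 atypical receptors that scavenge or present ligand. In WT mice, 16 of 22 tested receptors were higher and 4 lower in thymus than in cerebrum, where 43.4% and 40.9% of all genes were, and 17 were higher and 3 lower in thymus than in cerebellum, against 41.8% and 41.7%. As with the ligands, receptors abundant in thymus alone passed the filter through it, and nothing is read from these counts. Ccr9, the receptor that marks cortical thymocytes, was the highest in thymus at 475 to 793 CPM, followed by the Cxcl12 receptor Cxcr4 at 259 to 293 CPM, the Ccl19 and Ccl21 receptor Ccr7 at 51.6 to 70.2 CPM and the Ccl17 and Ccl22 receptor Ccr4 at 34.7 to 50.1 CPM. Each had at most 2.66 CPM in any brain library. These are CPM of different genes and are not compared with each other per length. Cxcr6, the Cxcl16 receptor, had 7.37 to 13.03 CPM, Xcr1 had 7.27 to 11.9 CPM and Cxcr3 had 3.41 to 4.98 CPM in thymus.

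In the brain, Cx3cr1, the microglial receptor of Cx3cl1, followed its ligand in the order of organs, with 50.4 to 73.2 CPM in cerebrum, 13.1 to 31.7 CPM in cerebellum and 6.78 to 10.6 CPM in thymus. Ccr10, the receptor of Ccl27a and Ccl28, did not, at 0.745 to 1.55 CPM in thymus, 0.234 to 0.695 CPM in cerebrum and 0.605 to 1.09 CPM in cerebellum. Ackr3, the second Cxcl12 receptor, was higher in cerebrum (7.09 to 11.2 CPM) and cerebellum (7.18 to 12.3 CPM) than in thymus (0.894 to 3.11 CPM), opposite to Cxcr4. Ackr1, an atypical receptor of vessels and of cerebellar Purkinje cells, had 25.7 to 103 CPM in cerebellum, lowest in Tol replicate 2, and 34.1 to 49.6 CPM in cerebrum.

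Of the 23 receptors, 0 passed in Tol against WT by the edgeR test. In thymus 21 were tested and 5 had an unadjusted p under 0.05, a share of 23.8% against 24.4% of all genes. All 5 were lower in Tol. They were Ackr3 with -0.77 (edgeR adjusted p = 0.133), Cxcr5 with -0.47 (0.151), Ccr9 with -0.32 (0.130), Xcr1 with -0.31 (0.155) and Ccr4 with -0.24 (0.147) on the log2 scale. Most of the dendritic cell and fibroblast markers given above were also lower in Tol. The 10 thymocyte markers summed to 8678 to 10798 CPM in Tol thymus and 10291 to 11758 CPM in WT thymus. Of these 10, 4 were lower in Tol and 0 were called. The part of these markers in the receptor values was not tested. In cerebrum Cxcr2 had 0.54 and Ackr3 -0.37, and in cerebellum the monocyte receptor Ccr2 had 1.1, all without passing.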

How the data were processed

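Per the labels, poly(A) RNA of frozen thymus, cerebrum and cerebellum was extracted (RNeasy) and sequenced from a stranded kit (TruSeq). Reads were quantified by the authors against mouse GRCm38 transcripts plus Tol using Salmon 0.14.1, and the deposited values are estimated counts (expected counts) of genes, written as whole numbers without normalization, in 3 tables covering 22 libraries. The submitters' processing notes also name edgeR 3.9. The table columns call the transgenic mice MRT, read here as Tol, and the Tol transcript was seen in each of those columns. How transcripts were summed to genes is not given in the sources used here. Cerebellum libraries of Tol mice other than the 2 used are not analysed here.

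From these counts, edgeR 4.0.16 in R 4.3.3 (TMM, filterByExpr, quasi-likelihood F test, Benjamini-Hochberg adjustment over all genes tested, threshold 0.05) compared Tol with WT within each organ, tested the interaction of genotype and organ, and compared organs within each genotype over the 3 organs. SE is the log2 fold change divided by the square root of F. CPM is scaled by TMM factors over 22 libraries. Per-kb levels use the union of annotated exons of GENCODE vM21 (GRCm38), which held 34465 of 34585 identifiers and gave symbols, positions and sequences. Non-overlap counts use all libraries and no filter. No 2 libraries of a group were identical, and chi-square per degree of freedom was at least 5.28. The fits were tested on simulated data in which 200 well-counted genes were changed and all genes had a common spread. Such data do not cover ligands near the floor or libraries that differ within a group. Values by library are printed for the 26 ligands with a mean of at least 1 CPM in any group or an unadjusted p under 0.05 in Tol against WT; others are given by range. Marker and receptor lists (23 receptors) and the ligands themselves were chosen with earlier results of these data known. Alternatives were DESeq2 1.42.0 and its size factors, library totals, other filters and lengths, near-identical copies summed, other sets of libraries, a block for replicate number, and the omission of each library in turn. Leaving out cerebellum Tol replicate 2 with WT replicate 2, and cerebellum WT replicates 2 and 4, was chosen after seeing the data.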

Additional observations from a re-analysis of the deposited data

Results flagged for a closer look

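Of 71 groups of 4 libraries checked for 1 library far from the other 3, 4 were set apart, where chance gives about 3.55 (Dixon's 95% value). Ccl2 stood at 3.21 CPM in thymus WT replicate 3, against 0.927 CPM in the next library. Ccl19 stood at 7.71 CPM in thymus WT replicate 4, against 6.88 CPM in the next. Cxcl12 was lowest in cerebrum WT replicate 1 at 74.8 CPM, against 93.8 CPM in the next, and it had the lowest level in the group on which the non-overlap of Tol and WT cerebrum was described. Cxcl14 was lowest in thymus Tol replicate 2 at 2.95 CPM, against 3.72 CPM in the next. What set these libraries apart was not tested.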

How the results depend on the processing

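Most counts of ligands kept their size under the alternatives. For Tol against WT in thymus (0 called), DESeq2 called 1 ligand (Cxcl13, log2 difference -1.89) and 7.80% of all genes, and leaving out single libraries gave 0 to 1, the 1 being Ccl8 without Tol replicate 1 (0.63), where 18.2% of all genes were called. In cerebrum and cerebellum it was 0 throughout. Leaving out single libraries gave 0 interactions called for cerebrum minus thymus, 0 to 1 for cerebellum minus thymus and 0 to 2 for cerebellum minus cerebrum, with 1 and 2 when cerebellum Tol replicate 1 was left out and only replicate 2 remained, where 10.2% and 8.49% of all genes were called. For cerebellum against cerebrum, fitting the 2 organs only gave 5 of 9 tested ligands in WT (8 of 27 in the 3-organ fit) and 1 of 14 in Tol (3 of 31), with 49.8% (51.1%) and 15.6% (23.4%) of all genes, and leaving out single libraries gave 6 to 9 in WT and 3 to 5 in Tol, the 5 being without Tol replicate 2. Thymus against cerebrum kept 26 to 30 in WT and 29 to 31 in Tol, and against cerebellum 26 to 30 and 30. Scaling by library totals moved the summed ligand level of WT thymus from 710 to 839 CPM, and the longest transcript in place of all exons moved the share of Ccl21a in thymus to 44.2% and of Cx3cl1 in cerebrum to 66.9%. Differences near 0 turned sign without single libraries, for Cx3cl1 in thymus (-0.15 to 0.0076, positive without Tol replicate 1), Cxcl12 in thymus (-0.066 to 0.0076, positive without WT replicate 3) and Cx3cl1 in cerebrum (-0.13 to 0.075, positive without WT replicate 2, and 0.01 without WT replicate 3). In cerebellum, Cxcl14 ran from -0.40 without Tol replicate 2 to 1.4 without Tol replicate 1, Cx3cl1 from -0.74 to 1.69, and Ccl28 from -0.022 to 1.15. They were -0.31, -0.61 and 0.29 without Tol replicate 2 and WT replicate 2 together. Cxcl14 in Tol cerebellum against cerebrum ran from -1.49 without Tol replicate 2 to 0.27 without Tol replicate 1. The cause was not tested. Same-numbered Tol and WT libraries did not deviate together in every pair. Correlations ran from -0.42 to 0.54 in cerebrum, and were -0.23 and 0.72 for replicates 1 and 2 of cerebellum. Between organs of the same genotype, same-numbered libraries had correlations from -0.16 to 0.12. The numbers were therefore not taken as pairs. With the replicate block the counts were 0 in all comparisons of Tol with WT and 9 in place of 8 for WT cerebellum against cerebrum, where Ccl21b then passed at -1.75 and 49.8% of all genes were called. With 2 Tol cerebellum libraries, and with most ligands near 3 counts in brain, small differences there were not detectable at this depth.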
